A study of Homo sapiens with 6 samples.

Results

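Iron and heme handling genes are described here in Y79, an established human retinoblastoma cell line, as a named set of 10 genes: HMOX1, FTL, FTH1, SLC40A1, SLC48A1, TFRC, IREB2, ACO1, NCOA4 and SLC11A2. The rule names them by their known roles and uses no measured value, although they were chosen with earlier results of these data known, and all 10 were found among the 63140 gene IDs of the count table. RNA-seq libraries were prepared from cells kept in complete medium (control, n = 3) and from cells whose medium was depleted of arginine by recombinant human arginase (rhArg, n = 3). Incubation lasted 72 h in both groups, and a dose of 2 U/mL is assumed for rhArg, as stated for the experiments after the opening viability assay and not for these libraries by name. Whether libraries that share a group were grown as independent cultures is not given by the labels. The p-values therefore reflect library-to-library spread alone, and that spread may be technical.

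Each library held between 12580622 and 13747351 counted fragments. Of the 10 markers of retinoblastoma and photoreceptor identity, all 10 were detected, and their summed normalized count lay between 103200 and 122300 in the controls and between 58510 and 59510 under rhArg. Among them MYCN fell from 54265 ± 8644 to 13095 ± 1016 and CRX rose from 4533 ± 394 to 6962 ± 76.5. In the test described below, 7 of the 10 were lower under rhArg (70% against 30.9% of all genes tested). Only 1 of them (CRX) was higher, and 2 did not pass. Of 6 fibroblast markers, 3 were at 0 in all libraries, and the 6 summed to between 55.7 and 66.8 in the controls and between 43.4 and 44.9 under rhArg. The 6 macrophage and leukocyte markers summed to at most 7.95 normalized counts in any library. The 7 erythroid markers, checked because these cells are rich in heme, summed to between 76.5 and 82.4 in the controls and between 66.5 and 72.8 under rhArg. The 6 markers of retinal pigment epithelium and Muller glia summed to between 4.31 and 6.85 in the controls and between 110 and 132 under rhArg, and BEST1 carried that sum under rhArg while the other 5 had means under 10.

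Iron enters most cells bound to transferrin through the transferrin receptor, leaves the endosome through a divalent metal transporter, and is stored in the shell of ferritin or exported by ferroportin. Heme oxygenase opens the heme ring and releases its iron, and iron locked in ferritin is set free when a receptor carries ferritin to the lysosome. Both iron regulatory proteins bind hairpins called iron-responsive elements in messenger RNAs when iron is low, which holds back translation where the hairpin lies in the 5′ UTR and protects the message from decay where it lies in the 3′ UTR.

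Of the 10 genes, 6 were higher under rhArg, 3 were lower and 1 did not pass an adjusted p of 0.05 in the edgeR quasi-likelihood test over all 15221 genes tested. In that test 61.7% of all genes passed, 30.7% being higher and 30.9% lower. A gene was called a differentially expressed gene (DEG) where its log2 fold change also exceeded 1 in size. Among the 10 genes, 5 were DEGs on the higher side (HMOX1, SLC40A1, SLC48A1, FTL and FTH1), against 12.4% of all genes on that side. None of the other 5 was a DEG in the opposite direction, and 23.4% of all genes were DEGs in either direction. The 10 genes had a median log2 fold change of 0.70, and all genes tested had one of -0.005. All 10 passed the filter on low counts. Values below are normalized counts, that is, counts scaled by TMM-adjusted library size to the average of all 6 libraries, and every fold change sets rhArg against control. RNA was taken from whole cultures, so a change in the share of cells expressing a gene and a change in RNA per cell cannot be told apart.

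**Figure D1:**
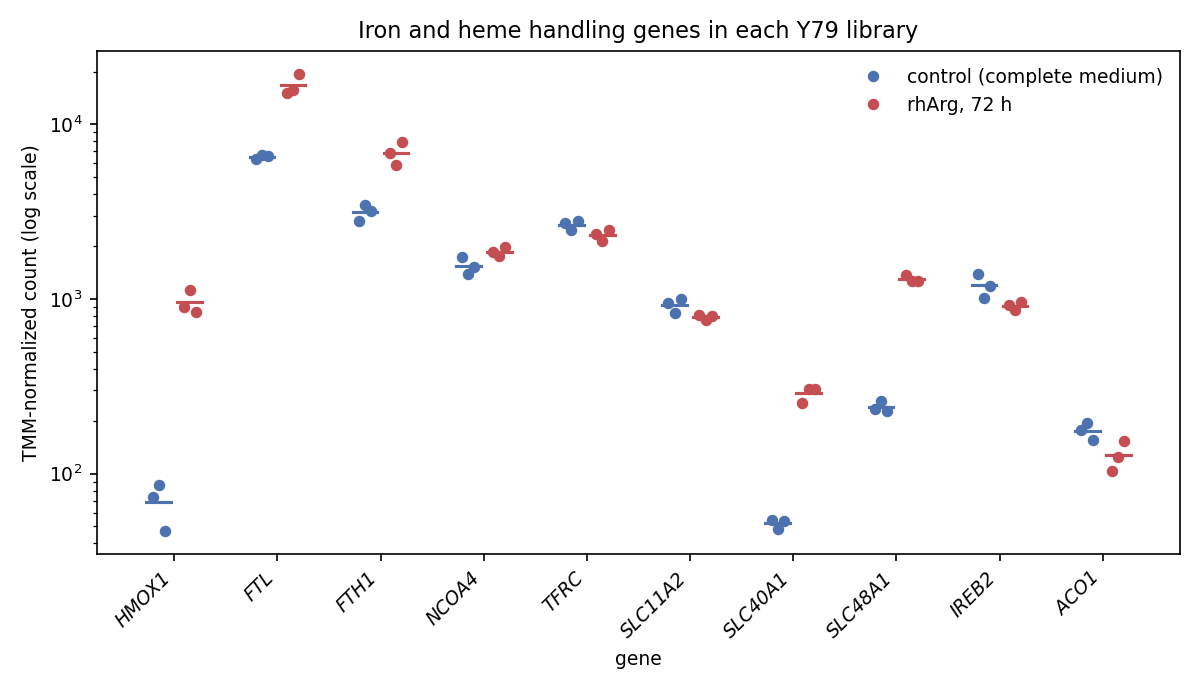
TMM-normalized count of each of the 10 genes in each library on a log axis, with 1 point per library and a line at the mean of the 3 control (blue) or 3 rhArg (red) libraries. HMOX1, FTL, FTH1, SLC40A1 and SLC48A1 stand clearly higher in all rhArg libraries, and TFRC is the gene whose groups overlap.

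Elements of the kind that the iron regulatory proteins bind were located first, by a sequence pattern that need not find every known element. The search pattern was a bulged C, 5 bases, the loop CAGTGN and 5 further bases, with all 5 facing bases able to pair (G with U allowed). In GENCODE release 29 transcripts it matched 291 of 19669 protein-coding symbols (1.48%), and 4 of the 10 genes: FTL, FTH1, SLC40A1 and TFRC. The matches of FTL, FTH1 and SLC40A1 lay in the 5′ UTR and those of TFRC in the 3′ UTR. The elements of FTL, of SLC40A1 and of TFRC in 5′ to 3′ order are given below as 30 bases of GRCh38 with the loop in capitals. They lie at chr19:48965335-48965364 (plus strand), at chr2:189580660-189580689 (minus strand) and, for TFRC on the minus strand, at chr3:196050978-196051007, chr3:196050574-196050603, chr3:196050509-196050538 and chr3:196050462-196050491.
FTL: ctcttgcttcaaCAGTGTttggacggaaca
SLC40A1: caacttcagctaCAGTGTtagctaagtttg
TFRC element 1: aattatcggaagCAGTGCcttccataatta
TFRC element 2: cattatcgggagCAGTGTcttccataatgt
TFRC element 3: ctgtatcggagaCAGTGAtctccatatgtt
TFRC element 4: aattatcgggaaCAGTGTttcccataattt

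The TFRC elements resembled each other in 19 to 25 of their 30 bases, and the elements of FTL and SLC40A1 shared 14 of 30. The FTH1 match lay at position 36 of its transcript, counted at the bulged C, and those of FTL and SLC40A1 at positions 41 and 205. Under rhArg the 3 genes with a match in the 5′ UTR were DEGs on the higher side (12.4% of all genes were), as were HMOX1 and SLC48A1 without a match, and TFRC did not pass the test. CDC14A, outside the 10 genes, has its match in the 3′ UTR and was also a DEG on the higher side. These letters were not found in the searched transcripts of the other 6 genes, among them SLC11A2. The pattern is strict, since it matched 3 of 6 other listed genes known to carry such an element. A gene without a match, SLC11A2 included, may therefore still carry one. A match is a description of sequence, and the counts report the amount of a message and not its translation.

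HMOX1 encodes the inducible heme oxygenase, which breaks heme down to biliverdin, carbon monoxide and iron (chr22:35380361-35394214, plus strand, gene ID ENSG00000100292). Its normalized counts were 73.5, 86.2 and 46.9 in the control libraries and 896, 1132 and 846 in the rhArg libraries. The lowest rhArg library stood far above the highest control. The mean rose from 68.9 ± 20.02 to 958 ± 153 (SD, n = 3 each), a log2 fold change of 3.80 ± 0.18 (SE), which is 14.0-fold (adjusted p = 7.84e-11, edgeR). Of all 15221 genes tested, HMOX1 ranked 138 by log2 fold change, with 0.900% of genes above it. The other heme oxygenase gene, HMOX2, was not assessed, since the table held 1 count for it over all 6 libraries while 10 of the 15 gene IDs within 100 kb of it had counts.

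Both ferritin chains were higher under rhArg. Ferritin is a shell of heavy chains, which oxidise iron for storage, and light chains, which favour its deposition as mineral. FTL, the light chain (chr19:48965309-48966879, plus strand, ENSG00000087086), had 6330, 6669 and 6565 normalized counts in the controls and 15188, 15703 and 19479 under rhArg. The control libraries lay close together, and rhArg replicate 3 was the highest of the treated libraries. FTL rose 2.57-fold from 6521 ± 174 to 16790 ± 2343 (log2 fold change 1.36 ± 0.10, adjusted p = 1.79e-08, edgeR). In absolute terms this was the largest gain in normalized counts among the 10 genes.

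FTH1, the heavy chain (chr11:61959718-61967634, minus strand, ENSG00000167996), had 2778, 3470 and 3168 normalized counts in the controls and 6804, 5817 and 7952 under rhArg, with no overlap between the groups. It rose 2.19-fold from 3139 ± 347 to 6858 ± 1068 (log2 fold change 1.13 ± 0.12, 95% interval 0.88 to 1.38, adjusted p = 5.86e-07, edgeR). Its interval reached below the DEG limit of 1, unlike that of FTL. Of the annotated exon bases of FTH1, 63.2% also lie in transcripts of BEST1, a channel gene of the retinal pigment epithelium on the opposite strand, and the counting used no strand. BEST1 itself moved from 2.69 ± 1.11 to 121 ± 12.4 normalized counts, and its part in the FTH1 value was not tested, although all 6 libraries together gave it 376 counts. Processed copies of FTH1 (25 gene IDs) took 1.54% to 2.44% of the summed counts of parent and copies, and those of FTL (16 gene IDs) took 0.274% to 0.458%.

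NCOA4, the receptor that carries ferritin to the autophagosome for breakdown (chr10:46005088-46030623, minus strand, ENSG00000266412), changed far less than the ferritin chains. It had 1746, 1384 and 1521 normalized counts in the controls and 1853, 1759 and 1978 under rhArg. The groups stood apart by a narrow gap, between control replicate 1 and rhArg replicate 2. NCOA4 rose 1.20-fold from 1550 ± 183 to 1863 ± 109 (log2 fold change 0.27 ± 0.10, adjusted p = 0.0329, edgeR). The call was lost without control replicate 2 (0.17, adjusted p = 0.112), control replicate 3 (0.24, adjusted p = 0.117), rhArg replicate 1 (0.27, adjusted p = 0.0833) or rhArg replicate 3 (0.22, adjusted p = 0.145).

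SLC40A1 encodes ferroportin, the exporter through which iron leaves the cell (chr2:189560590-189583758, minus strand, ENSG00000138449). It had 54.6, 48.5 and 53.8 normalized counts in the controls and 252, 307 and 307 under rhArg. The control libraries were nearly level with each other, and rhArg replicate 1 was the lowest of the treated libraries. SLC40A1 rose 5.51-fold from 52.3 ± 3.33 to 289 ± 31.6 (log2 fold change 2.46 ± 0.16, adjusted p = 3.14e-09, edgeR). Only 2.40% of the genes tested had a higher log2 fold change. The ferroxidases HEPH and CP, which work with ferroportin in other tissues, and the ferroportin ligand HAMP had at most 2 counts in any library and were not tested.

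SLC48A1 encodes HRG1, the transporter that moves heme out of the lysosome into the cytosol, where heme oxygenase works (chr12:47753916-47782751, plus strand, ENSG00000211584). It had 234, 261 and 229 normalized counts in the controls and 1376, 1268 and 1272 under rhArg. The groups were well separated, and rhArg replicate 1 was the highest library. SLC48A1 rose 5.41-fold from 241 ± 17.0 to 1305 ± 61.3 (log2 fold change 2.44 ± 0.10, adjusted p = 2.93e-11, edgeR), the smallest adjusted p of the 10.

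TFRC and SLC11A2, the import genes among the 10, differed little between groups. TFRC, the transferrin receptor (chr3:196012511-196082153, minus strand, ENSG00000072274), had 2707, 2472 and 2782 normalized counts in the controls and 2358, 2136 and 2476 under rhArg. The highest rhArg library, replicate 3, reached just above the lowest control, replicate 2. Means were 2654 ± 162 and 2323 ± 173 (log2 fold change -0.19 ± 0.09, adjusted p = 0.0860, edgeR). The 95% interval of -0.39 to 0.0065 includes no change and excludes a fall as large as the rise of either ferritin chain. Without control replicate 2 the adjusted p was 0.0169 (log2 fold change -0.26), and in no other alternative did TFRC pass.

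SLC11A2 encodes DMT1, the divalent metal transporter that carries iron out of the endosome (chr12:50979401-51028566, minus strand, ENSG00000110911). It had 942, 832 and 999 normalized counts in the controls and 805, 755 and 795 under rhArg, a narrow separation. It fell 1.18-fold from 924 ± 85.3 to 785 ± 26.2 (log2 fold change -0.24 ± 0.10, 95% interval -0.45 to -0.026, adjusted p = 0.0485, edgeR). That call was lost in 11 of 15 alternatives, including RLE factors (adjusted p = 0.0504), DESeq2 on the same genes (adjusted p = 0.0578) and the removal of any library but control replicate 2 (adjusted p from 0.0582 to 0.175).

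Both iron regulatory proteins had lower messages under rhArg. IREB2 encodes IRP2, which is broken down when iron is plentiful (chr15:78437431-78501453, plus strand, ENSG00000136381). It had 1395, 1018 and 1183 normalized counts in the controls and 918, 860 and 956 under rhArg, without overlap. IREB2 fell 1.32-fold from 1199 ± 189 to 912 ± 48.5 (log2 fold change -0.40 ± 0.11, adjusted p = 0.00633, edgeR), and it passed in each of the 15 alternatives, with log2 fold changes from -0.52 to -0.28.

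ACO1 encodes IRP1, which serves as cytosolic aconitase while it holds an iron-sulfur cluster and binds RNA without it (chr9:32384603-32454769, plus strand, ENSG00000122729). It had 178, 194 and 156 normalized counts in the controls and 104, 125 and 153 under rhArg. The highest rhArg library came close to the lowest control. ACO1 fell 1.38-fold from 176 ± 18.8 to 127 ± 24.9 (log2 fold change -0.47 ± 0.17, adjusted p = 0.0236, edgeR). The call was lost without control replicate 2 (-0.41, adjusted p = 0.0598), rhArg replicate 1 (-0.34, adjusted p = 0.128) or rhArg replicate 2 (-0.45, adjusted p = 0.0685).

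**Figure D2:**
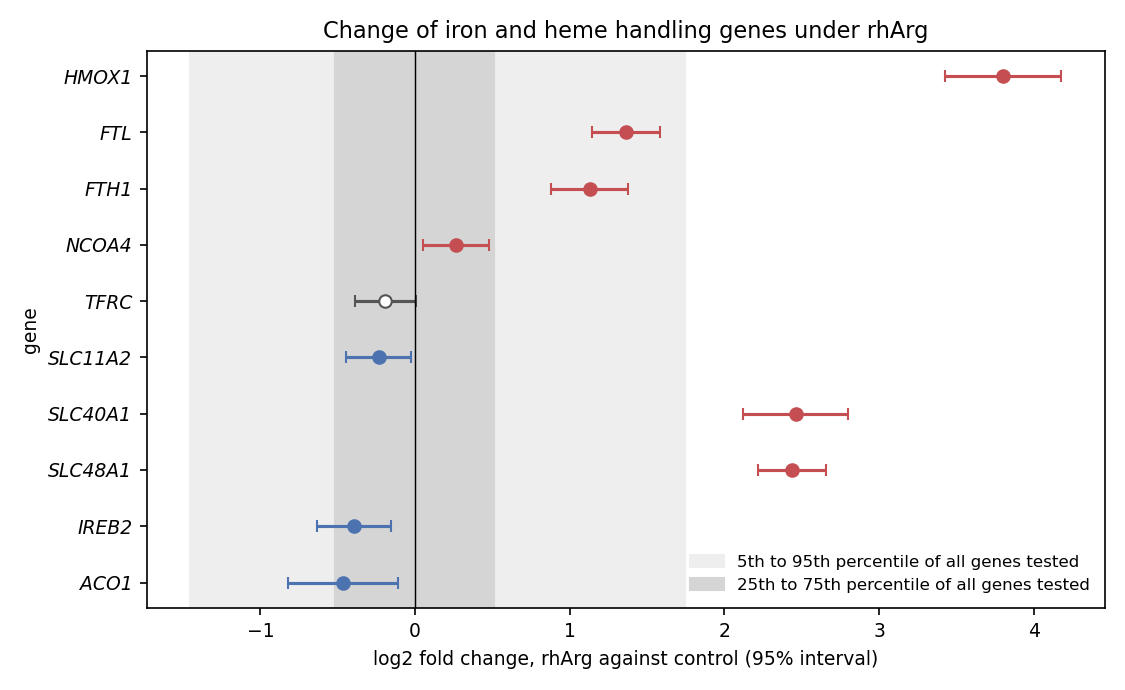
Log2 fold change (x axis, points) of the 10 genes with 95% intervals, over the spread of all 15221 genes tested (light grey, 5th to 95th percentile, -1.45 to 1.75; dark grey, 25th to 75th percentile, -0.52 to 0.51). Red and blue points passed an adjusted p of 0.05 and the open point (TFRC) did not; HMOX1, SLC40A1 and SLC48A1 lie beyond the light band, while NCOA4, TFRC, SLC11A2, IREB2 and ACO1 lie inside the dark band.

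Levels were compared between genes per kilobase of exon, in normalized counts per kb of the summed exon length in the count table. In the controls FTL stood first at 568 ± 15.1, followed by FTH1 (119 ± 13.1), NCOA4 (29.5 ± 3.48) and TFRC (11.6 ± 0.704). The FTH1 level may be too low, since 63.2% of its exon bases also lie in BEST1 and reads there can be lost. The size of that loss was not tested. IREB2 (8.42 ± 1.33) and SLC11A2 (7.09 ± 0.653) came next and overlapped each other. SLC48A1 (3.73 ± 0.263) stood above HMOX1 (2.27 ± 0.659) and ACO1 (1.77 ± 0.189), which overlapped, and SLC40A1 was last at 0.940 ± 0.0599.

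Under rhArg the ferritin chains and NCOA4 kept their places at the top, at 1462 ± 204 for FTL, 260 ± 40.4 for FTH1 and 35.4 ± 2.08 for NCOA4. HMOX1 moved from the 8th place to the 4th at 31.5 ± 5.03, where its libraries overlapped those of NCOA4. SLC48A1 moved from 7th to 5th at 20.2 ± 0.948 and stood above TFRC (10.1 ± 0.755). SLC40A1 (5.19 ± 0.568) was 9th, still below IREB2 (6.40 ± 0.340) and SLC11A2 (6.02 ± 0.201), and ACO1 was last at 1.28 ± 0.250. The order depends on length, since the table sums all annotated exons of a gene (17376 bases for TFRC, against 5111 in its principal GENCODE transcript). With the principal transcript, a choice added after the data were seen, TFRC was at 34.5 ± 2.57 under rhArg and overlapped HMOX1 (39.9 ± 6.36) and SLC48A1 (32.9 ± 1.55).

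Ratios within a library need no library size. Reads of FTH1 in bases shared with BEST1 can be lost, so the size of the ratios with FTH1 may be biased, which was not tested. The ratio of FTH1 to FTL counts was 0.439, 0.520 and 0.483 in the controls and 0.448, 0.370 and 0.408 under rhArg, and the groups overlapped. The log2 ratio differed by -0.23 between groups, and the exact two-sided permutation p was 0.2, where 3 libraries against 3 cannot give less than 0.1. The ratio of TFRC to FTH1, import against storage, was 0.975, 0.713 and 0.878 in the controls and 0.347, 0.367 and 0.311 under rhArg. It did not overlap between groups and was 2.49-fold lower under rhArg (log2 difference -1.32, exact permutation p = 0.1, the smallest possible). Most of that shift is the FTH1 rise given above (log2 fold change 1.13, against -0.19 for TFRC), so the ratio is no separate result. The difference in TFRC to FTH1 stayed between -1.44 and -1.21 when each library was left out. The ratio of ACO1 to IREB2 was 0.127, 0.191 and 0.132 in the controls and 0.113, 0.145 and 0.160 under rhArg, with overlap (log2 difference -0.097, exact permutation p = 0.7). That difference had no stable sign, being 0.088 without control replicate 2 and 0.048 without rhArg replicate 1.

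**Figure D3:**
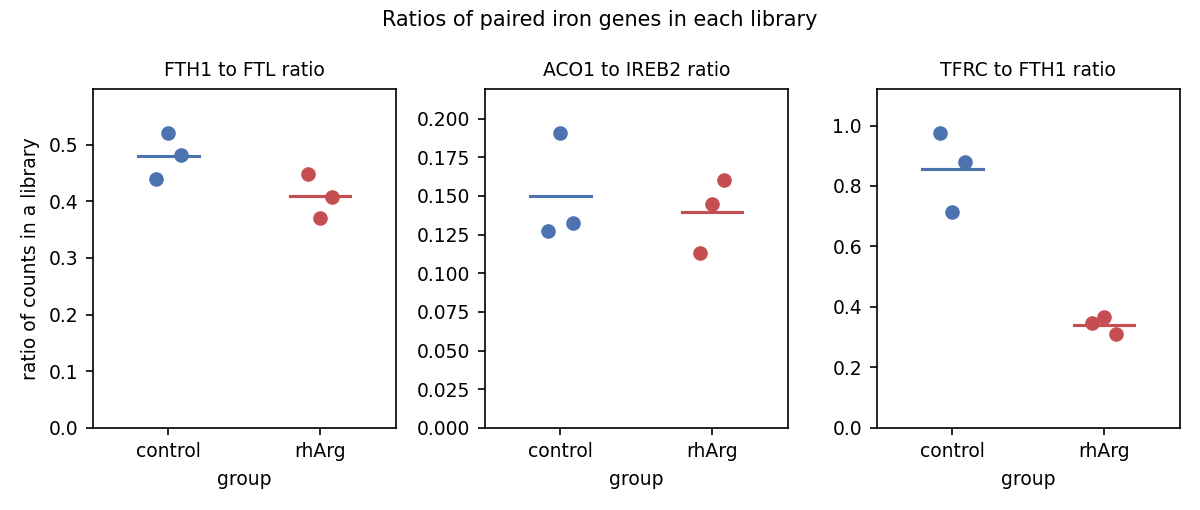
Ratio of counts in each library (y axis, from 0) for FTH1 to FTL, ACO1 to IREB2 and TFRC to FTH1, with 1 point per library and a line at the mean of 3 libraries. TFRC to FTH1 is the ratio whose groups do not overlap, at 0.713 to 0.975 in the controls and 0.311 to 0.367 under rhArg. That shift mostly restates the FTH1 rise.

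The genes around these 10 were taken from lists by role. The 8 lists of iron and heme genes held 96 genes, of which 77 were tested, 22 were higher, 25 were lower and 30 did not pass, with a median log2 fold change of -0.05. The shares called higher (28.6%) and lower (32.5%) were near those of all genes. Of the 10 genes 6 were higher, but these were chosen with earlier results of these data known. The larger share among the 10 may come from that choice, and the difference was not tested.

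Downstream of heme oxygenase, both biliverdin reductases were higher. BLVRB went from 113 ± 25.4 to 294 ± 37.4 normalized counts (log2 fold change 1.38, adjusted p = 3.40e-06, edgeR) and BLVRA, the main enzyme that makes bilirubin, from 149 ± 5.32 to 243 ± 19.5 (0.70, adjusted p = 2.78e-04). POR, the reductase that supplies heme oxygenase with electrons, had a log2 fold change of 0.45. FLVCR1, a transporter long linked to heme export, fell by 0.77 on the log2 scale, and EIF2AK1, the heme-regulated kinase of the integrated stress response, fell by 0.28, a call lost without rhArg replicate 1 (adjusted p = 0.0712). BACH1, the heme-sensing repressor of HMOX1, had a log2 fold change of 0.26 (adjusted p = 0.0484), with overlapping groups. That call was lost in 8 alternatives, those without control replicate 2 or 3 and without rhArg replicate 1 or 3 among them (0.16 without the last, adjusted p = 0.282). Of the 12 genes tested in this list of heme breakdown, transport and sensing, 4 were higher, 2 were lower and 6 did not pass (median 0.07). The shares were 33.3% higher and 16.7% lower, against 30.7% and 30.9% of all genes.

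The list of heme synthesis split in both directions, with 6 genes higher, 5 lower and 3 not passing of 14 tested (median 0.16). The shares were 42.9% higher and 35.7% lower, against 30.7% and 30.9% of all genes. UROS, which closes the tetrapyrrole ring, fell from 489 ± 20.8 to 179 ± 10.4 normalized counts (log2 fold change -1.45). CPOX, an oxidase of the pathway, fell by 0.73, and SLC25A39, a mitochondrial carrier for glutathione, fell by 1.18. The genes that rose included CLPX (0.95), the unfoldase that acts on the synthase of the opening step, TMEM14C (0.90), which aids porphyrin import, ABCB10 (0.53) and the glycine carrier SLC25A38 (0.36).

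Iron-sulfur clusters are built in mitochondria and the cytosol from the same pool of iron. Of the 16 genes tested in the mitochondrial list, 2 were higher, 8 lower (50% against 30.9% of all genes) and 6 did not pass (median -0.33). BOLA3 fell from 250 ± 53.1 to 81.5 ± 3.79 normalized counts and GLRX5, which hands on the nascent cluster, from 712 ± 49.5 to 284 ± 15.6 (log2 fold changes -1.61 and -1.32). IBA57 (-0.90) and LYRM4 (-0.76), a partner of the desulfurase, were also lower, while NFU1 (0.92) and the ferredoxin reductase FDXR (0.66) were higher. Of the 10 genes of the cytosolic pathway, 0 were higher (30.7% of all genes were), 5 were lower (50% against 30.9%) and 5 did not pass (median -0.23). Those lower included CIAO2B at -0.84, GLRX3 at -0.69, CIAO2A at -0.65 and MMS19 at -0.30. Of the exon bases of GLRX5, 12.6% lie in SNHG10.

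**Figure D4:**
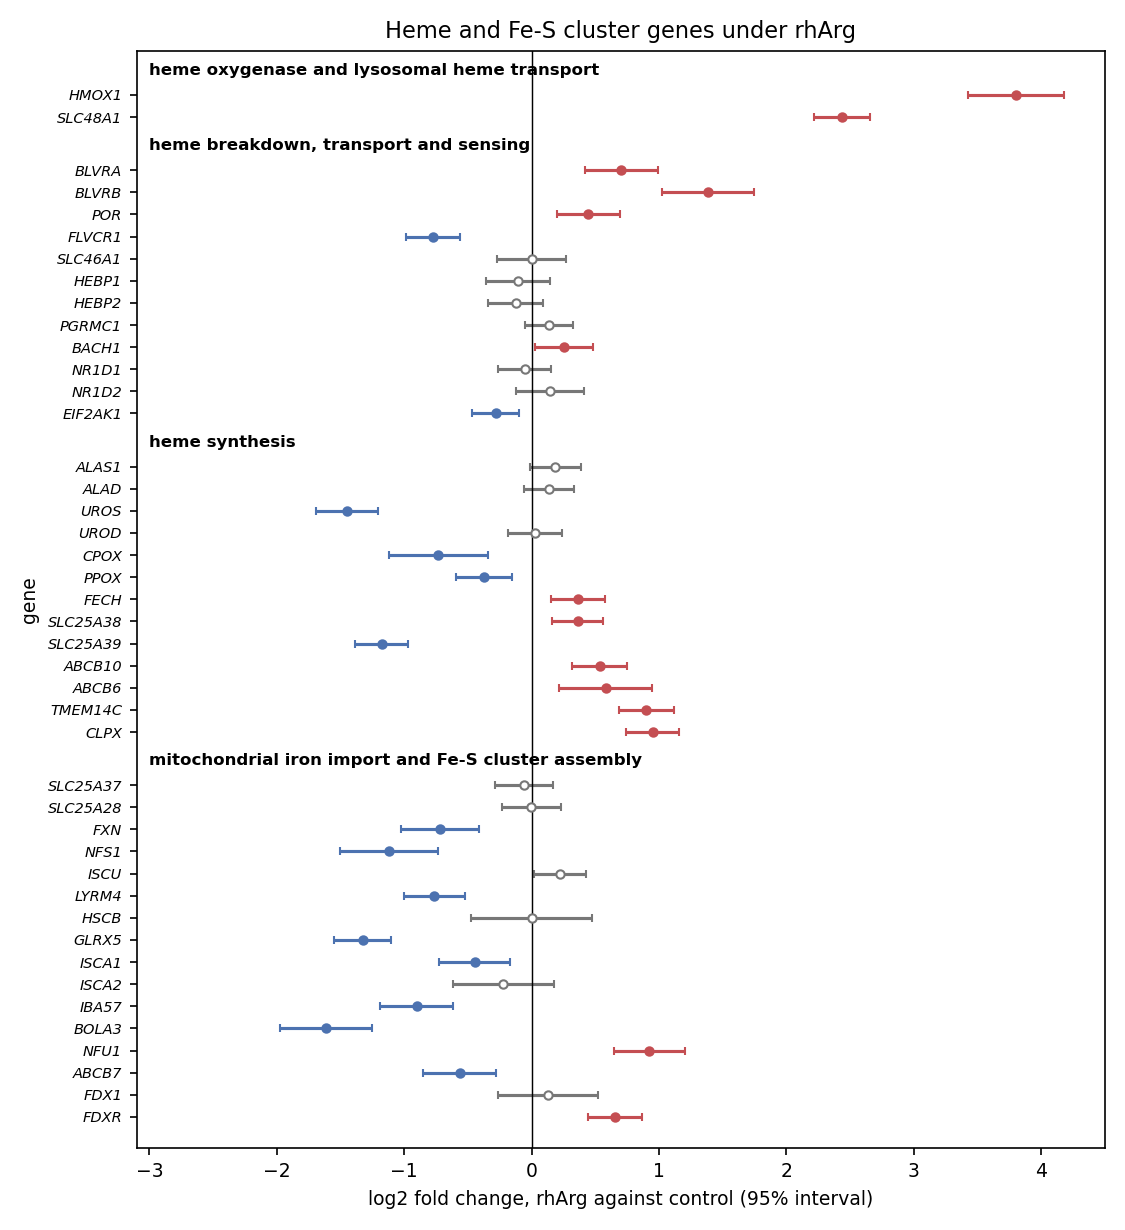
Log2 fold change (x axis, points with 95% intervals) of HMOX1 and SLC48A1 and of genes tested in the lists of heme breakdown, heme synthesis and mitochondrial iron-sulfur (Fe-S) cluster assembly. Red points were higher, blue points lower and open points did not pass an adjusted p of 0.05; HMOX1 at 3.80 and SLC48A1 at 2.44 lie to the right of every other gene shown.

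In the list of the transferrin cycle and other iron import, 3 of 10 tested genes were higher, 1 was lower and 6 did not pass. The shares were 30% higher and 10% lower, against 30.7% and 30.9% of all genes. TFR2, another transferrin receptor known from liver and erythroid cells, went from 12.5 ± 1.55 to 71.8 ± 9.25 normalized counts (log2 fold change 2.51, adjusted p = 3.88e-07, edgeR), in contrast to TFRC. SLC39A14, a zinc and iron importer, had a log2 fold change of 0.85, and SNX3, which helps to recycle TFRC, one of 0.69. STEAP3, the endosomal reductase that prepares iron for SLC11A2, fell from 467 ± 69.4 to 159 ± 14.0 normalized counts (-1.55). Among 8 chaperones, storage factors and regulators of IRP turnover, 3 were higher (37.5%) and 2 lower (25%), near the shares of all genes. FBXL5, the iron-sensing ligase subunit that marks IRP2 for breakdown, had a log2 fold change of 0.46 and HERC2, which acts on FBXL5, one of 0.48, although its groups overlapped. CISD2 (0.45), CISD1 (-0.39) and CUL1 (-0.24) were the other genes called. The HERC2 call was lost without rhArg replicate 1 (adjusted p = 0.0551), and its log2 fold change was 0.30 without control replicate 2. The CISD1 call was lost without control replicate 1 (log2 fold change -0.25, adjusted p = 0.0740) or rhArg replicate 1 (0.0808) and that of CUL1 without rhArg replicate 1, 2 or 3 (up to 0.113). In the list of iron export and hepcidin control, NEO1 (0.49) was 1 of 2 genes tested.

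**Figure D5:**
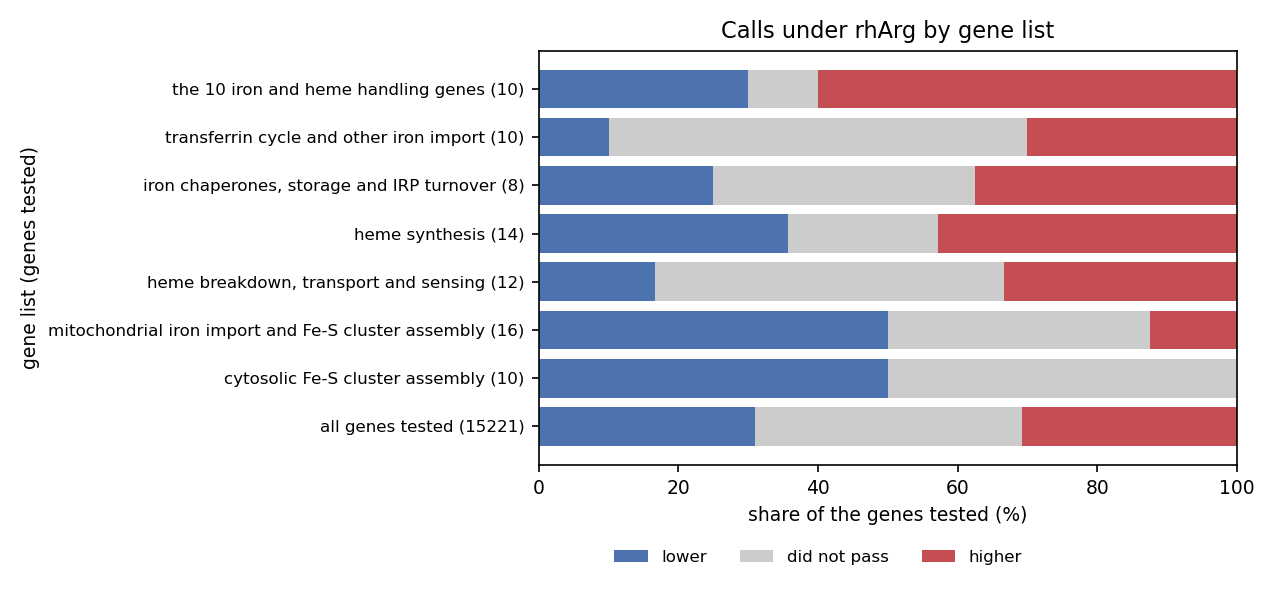
Share of the tested genes of each list (x axis, %) called lower under rhArg (blue), called higher (red) or not past an adjusted p of 0.05 (grey), with the number tested in brackets. The 10 iron and heme handling genes had 60% higher and 30% lower, and all genes tested 30.7% and 30.9%.

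Other messages known to carry an iron-responsive element also moved in both directions, with 3 higher and 2 lower of 5 tested. Of all genes, 30.7% were higher and 30.9% lower. CDC14A (1.40) and CDC42BPA (0.35) were among those higher, and PFN2 (-0.75) and EPAS1 (-0.80) were lower on the log2 scale.

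Of the 7 genes in the list of transcription factors of HMOX1 and their inhibitor, 6 were higher (30.7% of all genes were) and 1 was lower. NFE2L2, the activator called NRF2, rose from 707 ± 22.6 to 1510 ± 9.98 normalized counts (log2 fold change 1.09), with 38.4% of its exon bases in HNRNPA3. Its small partner MAFG had a log2 fold change of 1.32 and MAFF one of 1.06, while MAFK fell by 0.96, with 18.1% of its exon bases in TMEM184A. ATF4, the effector of the amino acid response, went from 6003 ± 973 to 10945 ± 62.9 (0.87). KEAP1, the inhibitor of NRF2 (0.44), and BACH1, the repressor of HMOX1 (0.26), were the remaining genes called. The BACH1 call was lost in 8 alternatives. The genes called higher thus include an inhibitor and a repressor as well as activators. In RefSeq promoter windows (250 bases before to 50 after each start, GRCh38.p14, both strands), matched for 8 of the 10 genes with 13 windows (not HMOX1 or FTH1), the antioxidant response core TGACNNNGC was present for NCOA4 and in 13.3% of all 35116 windows. TGATGNAA, a core of C/EBP-ATF elements, was present for SLC11A2 and in 3.62% of all windows. The hypoxia core ACGTG was present for FTL and TFRC and in 21.4% of all windows, and the E-box CACGTG, which contains it, for none of the 8 genes and in 7.26% of all windows. Sequence outside these short windows was not searched, so a gene without a match may still carry the element elsewhere.

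Iron and ferritin are also discussed in ferroptosis, a form of cell death by lipid peroxidation that depends on iron. In a list of 4 further genes tied to it and measured in the study by other assays, which also took FTH1, SLC7A11, the cystine importer, went from 48.2 ± 33.7 to 2642 ± 248 normalized counts (log2 fold change 5.76, adjusted p = 7.33e-11, edgeR), a larger change than that of any of the 10 genes. GPX4, which repairs lipid peroxides, had a log2 fold change of -0.25 (95% interval -0.48 to -0.015, adjusted p = 0.0601), and ACSL4, which feeds the lipids concerned into membranes, one of -0.25 (-0.60 to 0.095, adjusted p = 0.192). Both values depended on the control libraries. GPX4 passed in 4 alternatives and ranged from -0.36 without control replicate 3 (adjusted p = 0.00987) to -0.12 without control replicate 2 (adjusted p = 0.213). ACSL4 ranged from -0.41 without control replicate 2 (adjusted p = 0.0266) to -0.06 without control replicate 1 (adjusted p = 0.753). PTGS2 had at most 5 counts in any library and was not tested. By quantitative PCR, the paper reports higher COX-2 (PTGS2) and ACSL4 and, in Y79, lower GPX4 upon arginine deprivation. It reports no change of FTH1 in Y79 cells carrying a control (scramble) hairpin RNA, whereas FTH1 was 2.19-fold higher here. Assay and cells differed, and the reason for the unlike results was not tested.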

How the data were processed

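Fragments were counted per gene for 6 Y79 libraries, all of which were used (unused columns of per-sample values: 0). The authors cleaned reads with SOAPnuke, mapped them with HISAT2 on hg38 (versions not given in the sources used here) and deposited raw counts made with featureCounts 2.0.1 on the Ensembl GRCh38 annotation release 112, per the file header. The counting command set no option for strand, overlapping genes or multi-mapping reads, so overlapping or multi-mapping reads can be lost. Groups and replicate numbers came from the labels, the time from the methods of the study and the dose from its account of the viability assays.

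Of 63140 gene IDs, 62541 matched a gene symbol, and of several IDs with 1 symbol the one with most counts kept it (1468 other IDs). Differential testing used edgeR 4.0.16 under R 4.3.3, with filterByExpr, TMM factors, a quasi-likelihood fit (glmQLFit, glmQLFTest) on condition alone and Benjamini-Hochberg adjustment over 15221 genes. TMM factors lay between 0.975 and 1.02, and the common dispersion was 0.011. Since TMM centres the typical gene, a global shift cannot be detected. SE is the log2 fold change over the square root of F, and SD is over 3 libraries. No replicates of a group were duplicates (chi-square over degrees of freedom 3.91 to 18.2). Ratios were tested by exact two-sided permutation in scipy 1.17.1.

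The 10 genes, the lists around them and the markers were chosen with earlier results of these data known, so no test over a list was made. The text names all 10 genes, a list of 4 ferroptosis genes (PTGS2, ACSL4, GPX4 and SLC7A11) and, from each list, up to 4 higher and 4 lower genes with the smallest adjusted p; BEST1, MYCN, CRX, HMOX2, KEAP1, HEPH, CP and HAMP were named after their values were seen, and some listed genes are not reported here. Iron-responsive elements were searched in GENCODE 29 transcripts, and promoters in RefSeq windows. Alternatives were library totals, upper-quartile or RLE factors, dropping or tightening the filter (1 CPM throughout a group and a mean count of 20), DESeq2 1.42.0 on all genes with counts and on the filtered genes, each library left out, the replicate block, glmTreat at a log2 threshold of 1, pseudogene counts added to the parent and, for ratios, raw counts.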

Additional observations from a re-analysis of the deposited data

How the results depend on the processing

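HMOX1, FTL, FTH1, SLC40A1, SLC48A1 and IREB2 kept their direction and passed an adjusted p of 0.05 in each of 15 alternatives, with log2 fold changes of 3.57 to 3.97 for HMOX1, 1.00 to 1.24 for FTH1, 1.24 to 1.43 for FTL, 2.39 to 2.55 for SLC40A1, 2.39 to 2.48 for SLC48A1 and -0.52 to -0.28 for IREB2. NCOA4 did not pass without the filter on low counts (0.25, adjusted p = 0.0515) or in 4 of 6 fits that left out a library (range 0.17 to 0.35). SLC11A2 did not pass with RLE factors (-0.23), upper-quartile factors (-0.21), library totals (-0.23), no filter (-0.25), DESeq2 on all genes (-0.24) or on the filtered genes (-0.23), or in 5 of 6 fits without a library (-0.32 to -0.19). ACO1 ranged from -0.63 to -0.34 and TFRC from -0.26 to -0.13 when a library was left out. The number of the 10 genes called lower then ranged from 1 to 3, and the difference in the ACO1 to IREB2 ratio from -0.20 to 0.09 (0.0878 without control replicate 2, 0.0477 without rhArg replicate 1). Tested against a log2 fold change of 1, 1045 genes were higher and 843 lower, and 4 of the 10 genes were higher. The cause of these changes was not tested.

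The labels do not say whether the replicate numbers pair the libraries. Deviations from the group mean correlated at -0.0785, 0.0589 and 0.00403 between same-numbered libraries and at -0.0888 to 0.0821 between the others. Since each group was centred on its own mean over 3 libraries, these values cannot settle whether libraries were paired. With the replicate block 4694 genes were higher and 4691 lower, and the calls of the 10 genes were 6 higher and 3 lower. Among other genes named, calls changed for BACH1, GPX4 (passing in 4 alternatives), CUL1, CISD1, HERC2, EIF2AK1 and ACSL4. With 3 libraries per group the exact permutation test of a ratio cannot give p below 0.1.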
